A study of Oikopleura dioica with 12 samples.

Results

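Dynein heavy chains are the motor subunits of the dynein arms, and 7 gene models of Oikopleura dioica, a planktonic tunicate with separate sexes, were followed here. They were chosen by identifier, because the study describes each as a dynein heavy chain, and they make up 7 of the 17212 genes counted. All 7 passed the minimum of 100 reads over all libraries, which 14574 genes met. The descriptions come from a table of the study that was held only in part and is ordered from the largest fall in translational efficiency, the amount of ribosome-protected fragments (RPFs) relative to mRNA. A lower efficiency with Torin 1 was therefore fixed by the choice of the models. Differences in RNA and RPFs, from which efficiency is computed, are given as a description of the models, and nothing is read from their direction or number.

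Dynein arms sit in rows along the microtubule doublets of the axoneme, the core of cilia and flagella. The heavy chain hydrolyses ATP and steps along the neighbouring doublet, while the intermediate and light chains anchor the motor and tune it. Outer arms mainly set the beat frequency and inner arms the shape of the beat. In tunicates, motile cilia drive water through the gill openings, and sperm swim with a flagellum.

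Each library came from day 6 females held for 1.5 h in seawater with 1 μM Torin 1, an inhibitor of the kinase mTOR, or with its solvent DMSO. Total RNA and RPFs, the mRNA pieces that ribosomes shield from nuclease, were sequenced from the same collections of pooled whole animals, giving 3 replicates each of RNA Torin 1, RNA DMSO, RPF Torin 1 and RPF DMSO. Sex was checked under a microscope and the houses were removed, and total RNA was taken from a subset of the animals. In such samples, fewer cells of a type and less RNA per cell cannot be told apart.

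All of the 6 long models belong to large genes, and 4 of them form neighbouring pairs. GSOIDG00009218001, described as the beta heavy chain of outer-arm axonemal dynein and called the beta chain here, spans positions 1626996 to 1640764 of scaffold 3 of the Genoscope annotation on the plus strand, with 6 coding exons and 13323 coding bases. It is longer in coding sequence than 99.9% of the 18020 annotated models, whose median was 870.0 bases and 4 coding exons. In sea urchin sperm flagella the beta chain is a motor subunit of the outer arm. GSOIDG00001027001, described as ciliary dynein heavy chain 11 and called chain 11, spans 20014 to 27902 of scaffold 10 on the minus strand, with 2 coding exons and 7542 coding bases. Its namesake in human encodes an outer-arm heavy chain.

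On scaffold 5, minus strand, GSOIDG00013211001 (252263 to 256505, 11 coding exons, 3405 coding bases) lies upstream of GSOIDG00013210001 (242078 to 252245, 13 coding exons, 7824 coding bases), with a gap of 17 bases. On scaffold 36, plus strand, GSOIDG00010800001 (77762 to 82668, 8 coding exons, 4107 coding bases) lies upstream of GSOIDG00010801001 (82695 to 92795, 18 coding exons, 7788 coding bases), with a gap of 26 bases. Both scaffold 36 models and the scaffold 5 upstream model are described as axonemal or axonemal-like, and the scaffold 5 downstream model as a partial match to a human dynein heavy chain, with no arm named. Joined end to end, the scaffold 5 models would hold 3743 codons and the scaffold 36 models 3965, against 4441 in the beta chain alone. GSOIDG00016855001, the short model, spans 9332 to 10197 of scaffold 77 on the plus strand, with 2 coding exons and 822 coding bases, which is 274 codons, and is described only as a dynein heavy chain. Of the 7 models, the study lists only the scaffold 5 upstream model as carrying the spliced leader, and none as stocked in oocytes.

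RNA libraries held between 7520819 and 27462750 counts. RPF DMSO replicate 1 held 22889270 counts, against 91549 to 874562 in the other RPF libraries. Among the RNA libraries, Torin 1 replicates 1 and 3 stood apart, with Spearman correlations across genes of at most 0.826 and 0.821 with any other, whereas the remaining 4 correlated at 0.928 to 0.996. RNA Torin 1 replicate 3 was most like RPF DMSO replicate 1, with a correlation of 0.952, against 0.756 to 0.796 between that library and the other RPF libraries. RNA Torin 1 replicate 2 and RNA DMSO replicate 2 carry opposite treatment labels but had a correlation of 0.996 and differed by little more than counting noise, with a chi-square per degree of freedom of 1.07 over 13908 genes, against 6.88 or more for every other pair of libraries. Whether any library carries the label of another was not tested, and every value below is that of the library as labelled. Results are also given without RNA Torin 1 replicate 3 or RPF DMSO replicate 1, in which the long models were high, and for RNA without other libraries as stated.

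The 6 long models shared a strong pattern across the libraries: in RNA, each was far higher in Torin 1 replicate 3 than in any other RNA library. Levels are in RPM, the reads of a gene per 1000000 counted reads of its library, and their intervals cover counting error only. The beta chain had 179.8, 42.3 and 3024 RPM in RNA of Torin 1 replicates 1 to 3, against 28.6, 41.4 and 18.1 RPM in RNA of DMSO replicates 1 to 3. Its RPFs came to 2555, 8005 and 1540.2 RPM in Torin 1, against 3963, 639 and 1498 RPM in DMSO. The beta chain was the only model whose RNA levels in Torin 1 all lay above those in DMSO. Its lowest level in Torin 1 was 42.3 RPM and its highest in DMSO 41.4 RPM, both in replicate 2. This difference was within counting error, since the interval of the Torin 1 level was 37.8 to 47.2 RPM. Among all genes tested, 5.99% had RNA ranges in Torin 1 wholly above those in DMSO and 7.74% wholly below, and without RNA Torin 1 replicate 3, when the beta chain was again the only such model, 10.3% lay above and 11.0% below. RPF levels overlapped between the treatments.

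Chain 11 had 87.2, 10.4 and 1035 RPM in Torin 1 RNA, against 13.3, 12.4 and 2.91 RPM in DMSO RNA. Its RPFs came to 118, 326 and 251 RPM in Torin 1, against 1139, 32.0 and 135 RPM in DMSO. Replicate 2 of Torin 1 RNA thus lay below 2 of the 3 DMSO libraries, and RPF DMSO replicate 1 stood above every Torin 1 RPF library.

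The scaffold 5 upstream model had 98.9, 14.9 and 838 RPM in Torin 1 RNA, against 17.2, 13.7 and 1.46 RPM in DMSO RNA. Its RPFs came to 125, 465 and 218.5 RPM in Torin 1, against 1034, 46.9 and 143.5 RPM in DMSO. High and low libraries fell in nearly the same order as for chain 11. The downstream model, with more coding sequence, had 225, 32.98 and 1275 RPM in Torin 1 RNA, against 43.1, 32.9 and 4.33 RPM in DMSO RNA. Downstream RPFs came to 324, 1000.2 and 415 RPM in Torin 1, against 2000.4, 113 and 272 RPM in DMSO. In both models of scaffold 5, RPF DMSO replicate 1 was the highest of the 12 libraries and RNA DMSO replicate 3 the lowest.

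The scaffold 36 upstream model had 93.4, 12.4 and 562 RPM in Torin 1 RNA, against 17.5, 16.2 and 3.82 RPM in DMSO RNA. RPFs of this model came to 264, 1117 and 295 RPM in Torin 1, against 733, 80.0 and 239 RPM in DMSO. RPF Torin 1 replicate 2 was its highest library, as it was for the beta chain. The downstream model had 200.5, 33.1 and 967 RPM in Torin 1 RNA, against 39.5, 32.4 and 7.54 RPM in DMSO RNA. Its RPFs came to 682, 2078 and 589.8 RPM in Torin 1, against 1582, 170.4 and 362 RPM in DMSO. For all 6 long models, DMSO replicate 3 was the lowest RNA library and DMSO replicate 2 the lowest RPF library.

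**Figure D1:**
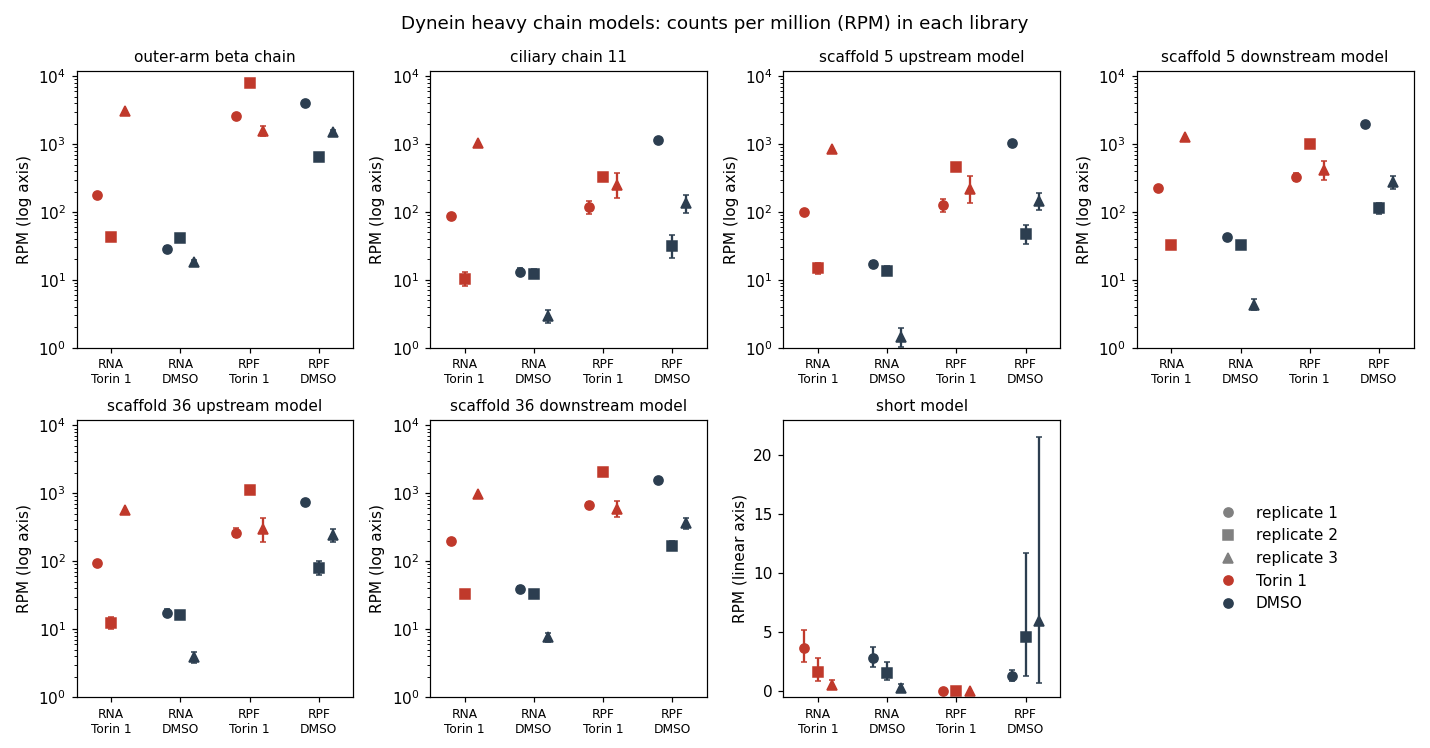
RPM of each dynein heavy chain model in each of the 12 libraries, by assay and treatment, with marker shapes for replicates and bars for the exact 95% Poisson interval of the count. The 6 long models are on log axes and share the high values of RNA Torin 1 replicate 3 and RPF DMSO replicate 1, whereas the short model, on a linear axis, stays at or below 5.98 RPM.

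The short model did not follow this pattern. It had 31, 12 and 15 counts in Torin 1 RNA (3.66, 1.60 and 0.559 RPM), against 50, 20 and 8 counts in DMSO RNA (2.81, 1.58 and 0.291 RPM). It had no count in any Torin 1 RPF library, against 29, 4 and 2 counts in DMSO RPFs (1.27, 4.57 and 5.98 RPM). A count of 0 allows, from 3 counts of the total, up to 4.17, 5.15 and 32.8 RPM in Torin 1 replicates 1 to 3, so that a difference in RPFs was not detectable at this depth and no fold change is given. RNA Torin 1 replicate 3, the highest RNA library of the long models, was the second lowest for the short model.

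The spread within groups was large. Summed over the 7 models, RNA averaged 2913 ± 4164 RPM in Torin 1 and 117 ± 68.2 RPM in DMSO, and RPFs averaged 6790 ± 5384 RPM in Torin 1 and 4732 ± 5017 RPM in DMSO (SD, n = 3 each). These sums took 0.770% of all counts in RNA Torin 1 replicate 3, against 0.0888% and 0.0148% in the other Torin 1 RNA libraries and 0.00385% to 0.0162% in the DMSO RNA libraries. Among the RPF libraries they took 0.331% to 1.30% in Torin 1, against 0.109% to 1.05% in DMSO. Between the highest and the lowest replicate, the long models differed by 29.2-fold to 99.8-fold in Torin 1 RNA and by 2.28-fold to 11.8-fold in DMSO RNA. RPFs differed by 2.76-fold to 5.20-fold in Torin 1 and by 6.20-fold to 35.6-fold in DMSO.

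Without RNA Torin 1 replicate 3 and RPF DMSO replicate 1, the 6 long models still moved together. The Pearson correlation of log2 CPM, computed like RPM but with library totals scaled by TMM factors, ranged over the 15 pairs of long models between 0.926 and 0.998 in the remaining 10 libraries, and between 0.922 and 0.998 in all 12. Libraries of both assays and of unequal depth enter these values, which are descriptive. With the long models, the short model had correlations of -0.35 to -0.22 in all 12 libraries.

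Per coding kilobase, which allows genes of different length to be compared, the order of the models changed between RNA and RPFs. In the RPF libraries other than RPF DMSO replicate 1, the beta chain was the highest of the long models, with 191.8, 601 and 115.6 RPM per kilobase in Torin 1 replicates 1 to 3 and 48.0 and 112 RPM per kilobase in DMSO replicates 2 and 3. Chain 11 was the lowest in these 5 libraries, with 15.7, 43.2 and 33.3 RPM per kilobase in Torin 1 and 4.25 and 17.8 RPM per kilobase in DMSO. Models of scaffold 36 came second there, above those of scaffold 5. In RNA the beta chain lay below both pairs in Torin 1 replicate 1, with 13.5 RPM per kilobase against 22.8 to 29.0 RPM per kilobase in the pairs, and in DMSO replicate 1, with 2.15 RPM per kilobase against 4.26 to 5.50 RPM per kilobase in the pairs. In RNA DMSO replicate 3 it was the highest of the long models, with 1.36 RPM per kilobase. The mean per kilobase in DMSO RNA was 2.20 ± 0.874 RPM for the beta chain and 3.04 ± 1.83 to 3.42 ± 2.57 RPM over the models of both pairs (SD, n = 3), and these differed by less than the spread.

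Accordingly, the beta chain took a larger share of the counts of the 7 models in most RPF libraries than in RNA. Its share of RPFs was 62.8%, 61.6% and 46.5% in Torin 1 and 37.9%, 58.8% and 56.4% in DMSO. In RNA the share was 20.2%, 28.6% and 39.3% in Torin 1 and 17.7%, 27.5% and 47.1% in DMSO. The share in RPF DMSO replicate 1 (exact binomial 95% interval 37.7% to 38.1%) was close to that in RNA Torin 1 replicate 3 (39.1% to 39.5%) and below those of the other RPF libraries, the lowest of which was 40.8% to 52.3% in Torin 1 replicate 3.

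Neighbouring models were compared through their shares of the counts, since parts of a single transcript would keep their ratio from library to library. For the scaffold 5 pair, the upstream model holds 30.3% of the coding length of both. It took 30.6%, 31.1% and 39.7% of the counts of the pair in Torin 1 RNA, against 28.5%, 29.4% and 25.2% in DMSO RNA. Its share of RPFs was 27.9%, 31.7% and 34.5% in Torin 1, against 34.1%, 29.3% and 34.5% in DMSO. The share thus stayed near that of the length in most libraries, with an interval that held it in 10 of the 12. RNA Torin 1 replicate 3 (39.3% to 40.1%) and RPF DMSO replicate 1 (33.7% to 34.4%), which have the most counts, lay above it and differed from each other by more than counting error.

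For the scaffold 36 pair, the upstream model holds 34.5% of the coding length. It took 31.8%, 27.2% and 36.8% of the counts in Torin 1 RNA, against 30.7%, 33.3% and 33.6% in DMSO RNA. Its share of RPFs was 27.9%, 34.96% and 33.3% in Torin 1, against 31.7%, 32.0% and 39.8% in DMSO. Here the interval left out the share of the length in 6 of the 12 libraries, with RNA Torin 1 replicate 3 (36.3% to 37.2%) above it and 5 libraries below it, among them RPF DMSO replicate 1 (31.3% to 32.1%). Over the 12 libraries the share spanned 14.5 percentage points in the scaffold 5 pair and 12.6 in the scaffold 36 pair. Among 268 neighbouring pairs on the same strand with a gap of at most 60 bases and at least 20 counts in every library, the median span was 26.8 points, and spans as small as these were found in 28.7% and 24.6%. Levels of the paired models, as log2(RPM + 1), correlated at 0.998 and 0.996 over the 12 libraries, against a median of 0.165 over the neighbouring pairs. Long models on different scaffolds reached 0.989 on the scale of log2 CPM, so that a high correlation did not single out neighbours. Whether each pair is a single gene was not tested.

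**Figure D2:**
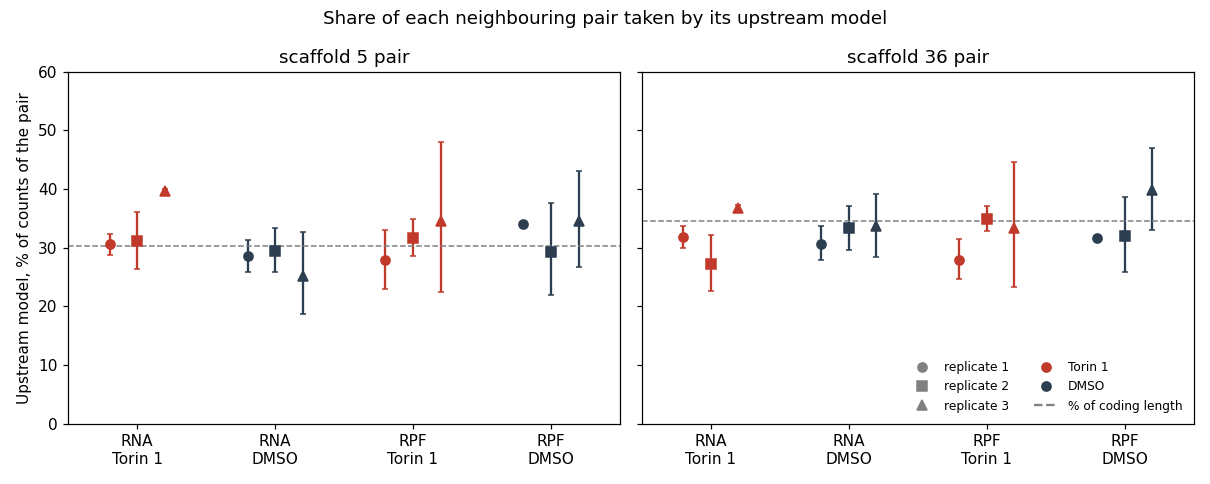
Share of the counts of each neighbouring pair taken by its upstream model, in percent, for each library by assay and treatment, with exact 95% binomial intervals. The dashed lines give the share of the coding length, 30.3% on scaffold 5 and 34.5% on scaffold 36, which the interval leaves out in 2 of the 12 libraries on scaffold 5 and in 6 of the 12 on scaffold 36.

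Genes beside the models followed them only in part. The nearest model upstream of the scaffold 5 pair, GSOIDG00013212001, at a gap of 107 bases on the same strand, had 3.30, 0.532 and 128 RPM in Torin 1 RNA, against 0.281, 0.631 and 0 RPM in DMSO RNA. Its RPFs came to 25.1, 130.4 and 87.4 RPM in Torin 1, against 97.4, 11.4 and 35.9 RPM in DMSO. GSOIDG00001026001, downstream of chain 11 on the same strand at a gap of 103 bases, had 16.99, 2.66 and 213 RPM in Torin 1 RNA, against 1.91, 2.68 and 0.291 RPM in DMSO RNA. Both shared the high values of RNA Torin 1 replicate 3, and neither is described in the sources used here. On scaffold 36, GSOIDG00010799001, described as troponin c, a calcium sensor of muscle, runs on the opposite strand at a gap of 760 bases. It had 12.98, 6.78 and 834 RPM in Torin 1 RNA, against 1.86, 6.31 and 1.46 RPM in DMSO RNA. The other 7 neighbours were low, with at most 42.0 RPM in any library, and of these only GSOIDG00009219001, next to the beta chain, had its highest RNA level in Torin 1 replicate 3, at 1.12 RPM. Since the strand setting of the counts is not stated, reads of overlapping models on opposite strands could not be told apart, but no model overlapped a heavy chain.

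RPFs and RNA of the same treatment and replicate number were taken to share a collection, which the labels do not state. RPFs relative to RNA of the same collection varied widely between replicates of either treatment. For the beta chain the ratio of RPF RPM to RNA RPM was 14.2, 189.3 and 0.509 in Torin 1 replicates 1 to 3, against 138.5, 15.4 and 82.6 in DMSO replicates 1 to 3. The other 5 long models had ratios of 1.27 to 3.40 in Torin 1 replicate 1, 30.3 to 90.3 in Torin 1 replicate 2 and 0.243 to 0.610 in Torin 1 replicate 3. In DMSO they had 40.1 to 85.9 in replicate 1, 2.59 to 5.26 in replicate 2 and 46.2 to 98.5 in replicate 3. The median ratio of all genes detected in both libraries of a collection was 0.536, 0.858 and 0.680 in Torin 1, against 0.787, 0.817 and 0.977 in DMSO. All 6 long models lay above this median in 5 collections and below it in Torin 1 replicate 3, the collection with their highest RNA levels.

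**Figure D3:**
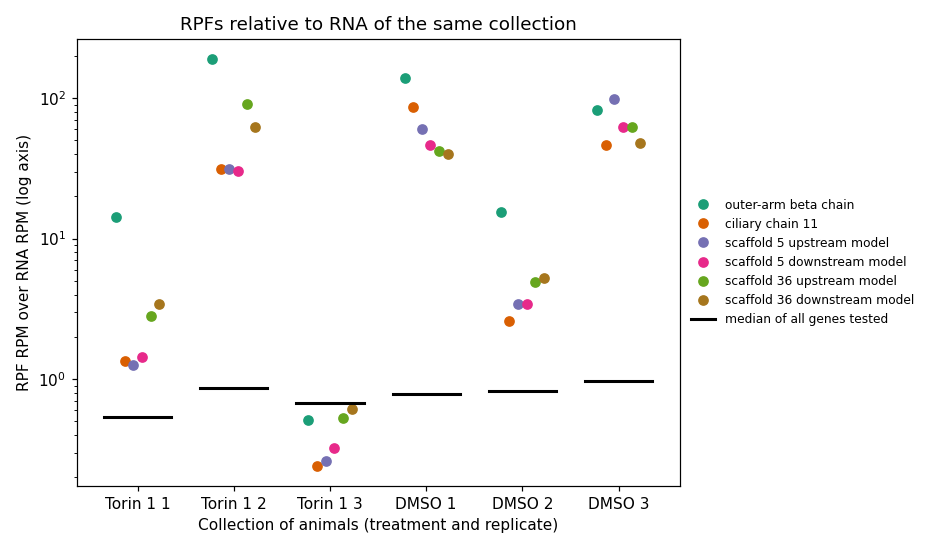
Ratio of RPF RPM to RNA RPM for each long dynein heavy chain model in each collection of animals, on a log axis. Libraries of the same treatment and replicate number were taken as 1 collection. Black bars give the median of all genes tested that had counts in both libraries. Ratios of the beta chain range from 0.509 in Torin 1 replicate 3 to 189.3 in Torin 1 replicate 2, and all 6 models lie below the median only in Torin 1 replicate 3.

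In total RNA, no heavy chain model passed the test between Torin 1 and DMSO (edgeR quasi-likelihood test, Benjamini-Hochberg adjustment over 14574 genes), and neither did any other gene (0.0% called in either direction). At an unadjusted p under 0.05, edgeR gave 1465 genes with more RNA in Torin 1 (10.1%) and 4 with less (0.0274%). The log2 fold change was 5.30 ± 1.61 (SE) for the beta chain, 5.44 ± 1.68 for chain 11, 5.02 ± 1.62 and 4.39 ± 1.44 for the upstream and downstream models of scaffold 5, and 4.28 ± 1.37 and 4.04 ± 1.27 for those of scaffold 36, each with an adjusted p of 0.452. The short model had 0.34 ± 0.99 with an adjusted p of 0.826, and the median of all genes was 0.22. DESeq2 called 81 genes higher (0.556%) and none lower, and the 6 long models were among the 81, at adjusted p values of 0.0117 to 0.0345. Without RNA Torin 1 replicate 3 the log2 fold changes of the long models were 1.79 to 2.30 with an adjusted p of 0.544, and without Torin 1 replicate 1 they were 4.39 to 5.92 with adjusted p values of 0.400 to 0.424. When Torin 1 replicate 3 and both RNA libraries of replicate 2 were left out, they were 2.75 to 3.27, but a single Torin 1 library then stood against 2 of DMSO. The spread came from those 2 DMSO libraries and from the other genes, and the adjusted p values, from 0.0527, assume that the lone library varied alike.

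For RPFs, edgeR called no gene between Torin 1 and DMSO (0.0% in either direction), although 190 genes (1.3%) had more RPFs in Torin 1 and 600 (4.12%) had fewer at an unadjusted p under 0.05. DESeq2 called none. Log2 fold changes of the long models had mixed signs and lay within about their standard errors of 0. They were 1.09 ± 1.01 for the beta chain, -0.80 ± 0.88 for chain 11, -0.49 ± 0.85 and -0.34 ± 0.88 for the upstream and downstream models of scaffold 5, and 0.77 ± 0.81 and 0.77 ± 0.86 for those of scaffold 36, with adjusted p values of 0.952 to 0.987. Leaving out RPF DMSO replicate 1, which held the highest DMSO level of each long model, raised these changes. All 6 were then positive, at 1.62 to 2.16, with adjusted p values of 0.262 to 0.530. RPM ranges in Torin 1 then lay above those in DMSO for 4 of the 7 models (7.18% of all genes), whereas none did in all libraries (2.17% of all genes). The short model, with 0 counts in Torin 1, lay below DMSO in both cases, as did 14.9% of all genes without RPF DMSO replicate 1 and 8.18% with it.

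Translational efficiency, tested through the difference of the treatment effect between the assays, had a negative change in all 7 models, which their choice had fixed. The log2 change was -4.17 ± 1.71 for the beta chain, -6.19 ± 1.98 for chain 11, -5.47 ± 1.88 and -4.68 ± 1.74 for the upstream and downstream models of scaffold 5, and -3.46 ± 1.57 and -3.21 ± 1.51 for those of scaffold 36, against a median of -0.46 over all genes. None passed the test, with adjusted p values of 0.392 to 0.652 for these 6, and edgeR called no gene (0.0% in either direction). An unadjusted p under 0.05 was found for 30 genes of higher efficiency (0.206%) and 1093 of lower efficiency (7.5%). DESeq2 called 1 gene higher (0.00686%) and 140 lower (0.961%), among them chain 11 with an adjusted p of 0.0370. Without RNA Torin 1 replicate 3 and RPF DMSO replicate 1, a choice made after the data were seen, the changes of the long models were small: 0.33 ± 1.14 for the beta chain, -0.54 ± 1.08 for chain 11, -0.58 ± 1.17 and -0.37 ± 1.16 for the upstream and downstream models of scaffold 5, and 0.06 ± 1.18 and 0.24 ± 1.12 for those of scaffold 36. Leaving out RNA Torin 1 replicate 3 alone gave -0.57 ± 1.15 for the beta chain, -1.08 and -1.15 for the upstream and downstream models of scaffold 36, and -2.91 to -2.39 for chain 11 and the scaffold 5 models. Leaving out RPF DMSO replicate 1 alone gave -3.07 ± 1.71 for the beta chain and -3.63 to -1.65 for the others. With each collection as a block, the changes were -3.75 to -1.71, with -1.71 ± 1.98 for the beta chain, and edgeR again called no gene, while 24 genes of higher and 373 of lower efficiency had an unadjusted p under 0.05.

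Within Torin 1 females, RPFs and RNA of the long models did not part in a test. Log2 ratios of RPFs to RNA ranged from -0.32 ± 1.15 for chain 11 to 2.26 ± 1.35 for the beta chain, with adjusted p values of 0.480 to 0.972, and edgeR called no gene (0.0% in either direction). Before adjustment, 417 genes (2.86%) had more RPFs than RNA and 1342 (9.21%) had fewer at a p under 0.05. DESeq2 called 75 genes higher (0.515%) and 83 lower (0.57%), none of them a heavy chain. Without RNA Torin 1 replicate 3 the log2 ratios of the long models were 2.77 to 5.74, and 4 of the 6 were called higher in RPFs, where 3.4% of all genes were called higher and 0.446% lower: the beta chain (5.74 ± 1.37, adjusted p = 0.00147), chain 11 (2.86 ± 0.91, adjusted p = 0.0451) and the models of scaffold 36 (upstream 4.00 ± 1.03, adjusted p = 0.00438, and downstream 3.85 ± 1.08, adjusted p = 0.0133). The long models had their highest RNA levels in RNA Torin 1 replicate 3. Leaving it out therefore raised their ratios, and these calls are no independent result. Leaving out any other single library gave no call among the models. RPF levels lay above all RNA levels for 6 of the 7 models without RNA Torin 1 replicate 3 (5.82% of all genes) and for none with it (1.52% of all genes). RPFs of the short model, at 0 counts, lay below its RNA in both cases, as did 34.3% of all genes without the library and 31.2% with it. With the collection as a block, which pairs RPFs and RNA of the same number, edgeR called 100 genes higher (0.686%) and 6 lower (0.0412%) in all libraries. None of them was a heavy chain, and the long models had log2 ratios of 1.43 to 4.32.

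Within DMSO females, 6 of the 7 models had more RPFs than RNA by the edgeR test, which called 6.79% of all genes higher and 1.21% lower (16.1% and 11.3% before adjustment). Log2 ratios were 6.37 ± 0.84 for the beta chain (adjusted p = 0.00386), 5.81 ± 1.22 for chain 11 (adjusted p = 0.0169), 5.56 ± 1.22 and 5.21 ± 1.16 for the upstream and downstream models of scaffold 5 (adjusted p = 0.0197 and 0.0208), and 5.11 ± 0.89 and 5.04 ± 0.94 for those of scaffold 36 (adjusted p = 0.00944 and 0.0120). The median of all genes was 0.17. RPF levels of these 6 models lay above all their RNA levels (11.9% of all genes, with 28.2% wholly below), and the short model was not called, with 1.38 ± 1.06 and an adjusted p of 0.411. A high ratio in DMSO enters the efficiency that ordered the list of descriptions, so that these calls are no independent result. Without RPF DMSO replicate 1 the ratios were 3.02 to 5.34 and all 6 calls held, where 6.91% of all genes were called higher and 12.9% lower. RPF levels then lay above RNA levels for all 7 models (18.9% of all genes, with 40.9% wholly below). For the short model these were 4.57 and 5.98 RPM in RPF DMSO replicates 2 and 3, where 3 counts equal 3.43 and 8.97 RPM. It was not called by edgeR (adjusted p = 0.247). Without RNA DMSO replicate 3 the ratios stayed at 4.62 to 6.17 but edgeR called no gene (0.0% in either direction). Without RPF DMSO replicate 3, which left 0.405% of all genes called higher and none lower, they were 5.32 to 6.55 and only the beta chain kept its call among the models (adjusted p = 0.0443). With the collection as a block the ratios were 4.77 to 6.11 and all 6 were called, along with 7.16% of all genes higher and 2.13% lower.

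**Figure D4:**
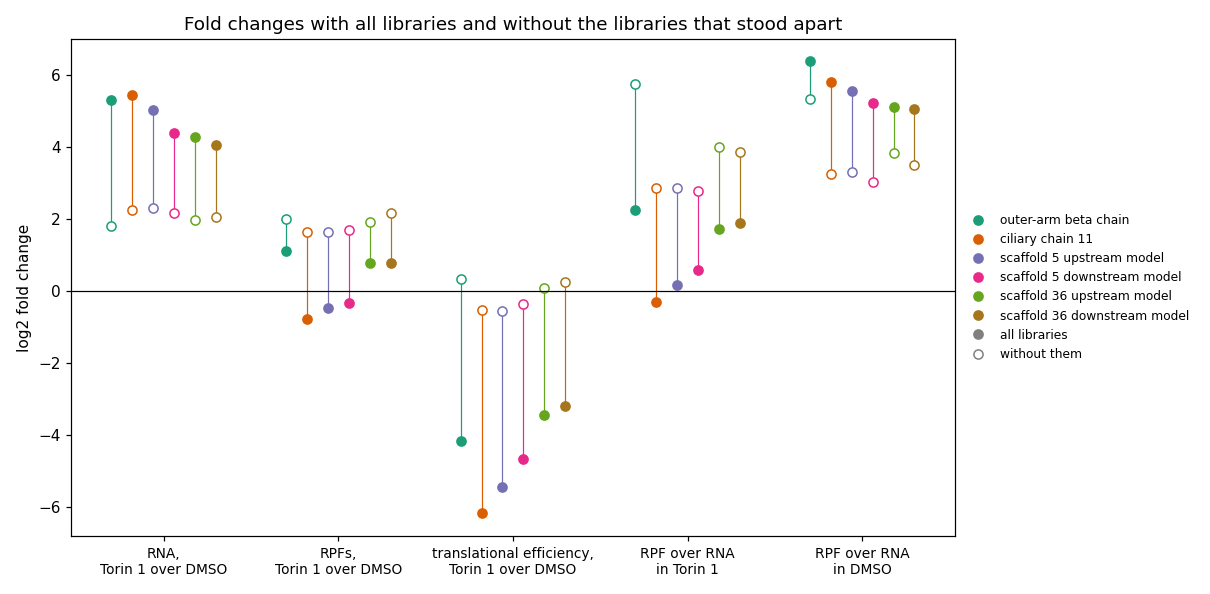
Log2 fold changes of the 6 long dynein heavy chain models with all libraries (filled) and without selected libraries (open): RNA Torin 1 replicate 3 for RNA and for RPF over RNA in Torin 1, RPF DMSO replicate 1 for RPFs and for RPF over RNA in DMSO, and both for translational efficiency. The efficiency changes lie between -6.19 and -3.21 with all libraries and between -0.58 and 0.33 without them.

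Other parts of the axoneme and genes of sperm and testis moved with the heavy chains. Their lists come from the same ordered descriptions as the models, so that a lower efficiency was fixed for them too, and they overlap in function, since sperm carry axonemes. High RNA in Torin 1 and a high ratio of RPFs to RNA in DMSO both enter that order. Their counts for RNA in Torin 1 and their calls in DMSO are therefore no independent result. The muscle and digestive lists below have the same source. The 8 other dynein subunits summed to 173, 70.5 and 4314 RPM in Torin 1 RNA, against 64.9, 74.5 and 28.8 RPM in DMSO RNA. In RPFs they summed to 825, 2685 and 1147 RPM in Torin 1, against 5132, 252 and 798 RPM in DMSO. All 8 were highest in RNA Torin 1 replicate 3 among the RNA libraries, as were 14.5% of all genes tested. Dynein intermediate chain 3, GSOIDG00009352001, which belongs to the base of the arm, had 12.2, 5.19 and 1139 RPM in Torin 1 RNA, against 0.843, 6.39 and 1.35 RPM in DMSO RNA. In RNA, edgeR called none of the 8 between Torin 1 and DMSO. All 8 were higher at an unadjusted p under 0.05 (10.1% of all genes), and DESeq2 called 2 higher (0.556% of all genes). Their median log2 fold change was 5.26, and 1.51 without RNA Torin 1 replicate 3. Within DMSO females, 8 of 8 were called higher in RPFs than in RNA (6.79% of all genes), with a median log2 ratio of 5.78. Without RPF DMSO replicate 1, 7 were called higher (6.91% of all genes), with a median of 3.57.

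The 18 other axoneme parts, among them radial spoke, tektin and nexin-dynein regulatory complex proteins, summed to 1142, 255 and 16950.3 RPM in Torin 1 RNA, against 318, 252 and 61.4 RPM in DMSO RNA. In RPFs they summed to 2923, 7245 and 3429.9 RPM in Torin 1, against 20145, 819 and 2204 RPM in DMSO. RNA Torin 1 replicate 3 was the highest RNA library of 15 of the 18. Coiled-coil domain containing 39 (GSOIDG00005126001), which in human is needed to place the inner arms, had 60.9, 13.3 and 2253 RPM in Torin 1 RNA, against 6.41, 10.7 and 1.89 RPM in DMSO RNA. By edgeR none of the 18 was called in RNA, with 14 higher at an unadjusted p under 0.05 (10.1% of all genes). DESeq2 called 6 higher (0.556% of all genes). The median log2 fold change was 5.28, and 1.86 without RNA Torin 1 replicate 3. Within DMSO females, 14 were called higher in RPFs than in RNA (6.79% of all genes), with a median log2 ratio of 6.11. Without RPF DMSO replicate 1, 13 were called higher (6.91% of all genes), with a median of 3.67.

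The 10 sperm and testis genes, listed by their descriptions, were present in these female samples. Whether these genes are limited to male germ cells in Oikopleura dioica was not tested. They summed to 133, 48.9 and 4449.5 RPM in Torin 1 RNA, against 42.7, 47.9 and 20.7 RPM in DMSO RNA. RPFs of these genes summed to 498, 1678 and 863 RPM in Torin 1, against 5489, 174 and 661 RPM in DMSO. In the RNA libraries and in RPF DMSO replicate 1, all 10 had at least 1 count. Testis-specific serine kinase 1 (GSOIDG00015162001), a kinase of spermatids in mammals, had 5.90, 3.19 and 501 RPM in Torin 1 RNA, against 0.787, 2.21 and 0.801 RPM in DMSO RNA. Neither edgeR nor DESeq2 called any of the 10 between Torin 1 and DMSO in RNA. At an unadjusted p under 0.05, 8 and 2 of them were higher, against 1465 and 1750 of the 14574 genes tested. The median log2 fold change by edgeR was 5.86, or 1.62 without RNA Torin 1 replicate 3. RNA Torin 1 replicate 3 was the highest RNA library of 9 of the 10 genes and RPF DMSO replicate 1 the highest RPF library of 8, as it was for 31.7% of all genes tested. Their part in the levels of the heavy chains was not tested.

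The 15 muscle genes followed the heavy chains only in part, in RPFs as in RNA. They summed to 4800.2, 641 and 1789 RPM in Torin 1 RNA, against 991, 629 and 67.6 RPM in DMSO RNA, and 13 of the 15 had their highest RNA level in Torin 1 replicate 1, as did 40.2% of all genes tested. In RPFs they summed to 269, 333 and 459 RPM in Torin 1, against 2301, 240.1 and 487 RPM in DMSO. RPF DMSO replicate 1 was the highest RPF library of 11 of the 15, as it was for 31.7% of all genes tested. Unlike the heavy chains, the muscle genes had no high sum in RPF Torin 1 replicate 2. Troponin c (GSOIDG00010799001) alone gave 1093 of the 2301 RPM in RPF DMSO replicate 1 and 834 of the 1789 RPM in RNA Torin 1 replicate 3. The 5 digestive enzymes summed to 124.9, 25.4 and 221 RPM in Torin 1 RNA, against 27.7, 25.8 and 7.65 RPM in DMSO RNA. Chymotrypsin b (GSOIDG00013136001), a protease of digestion, made up 205.5 of the 221 RPM in Torin 1 replicate 3, and the other 4 enzymes had their highest RNA level in Torin 1 replicate 1. The 2 genes of zona pellucida protein d, an egg coat protein, summed to 154.4, 28.1 and 52.0 RPM in Torin 1 RNA, against 37.6, 27.6 and 8.41 RPM in DMSO RNA. RNA DMSO replicate 3, in which the long heavy chains were lowest, was also the lowest RNA library for each of these sums.

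**Figure D5:**
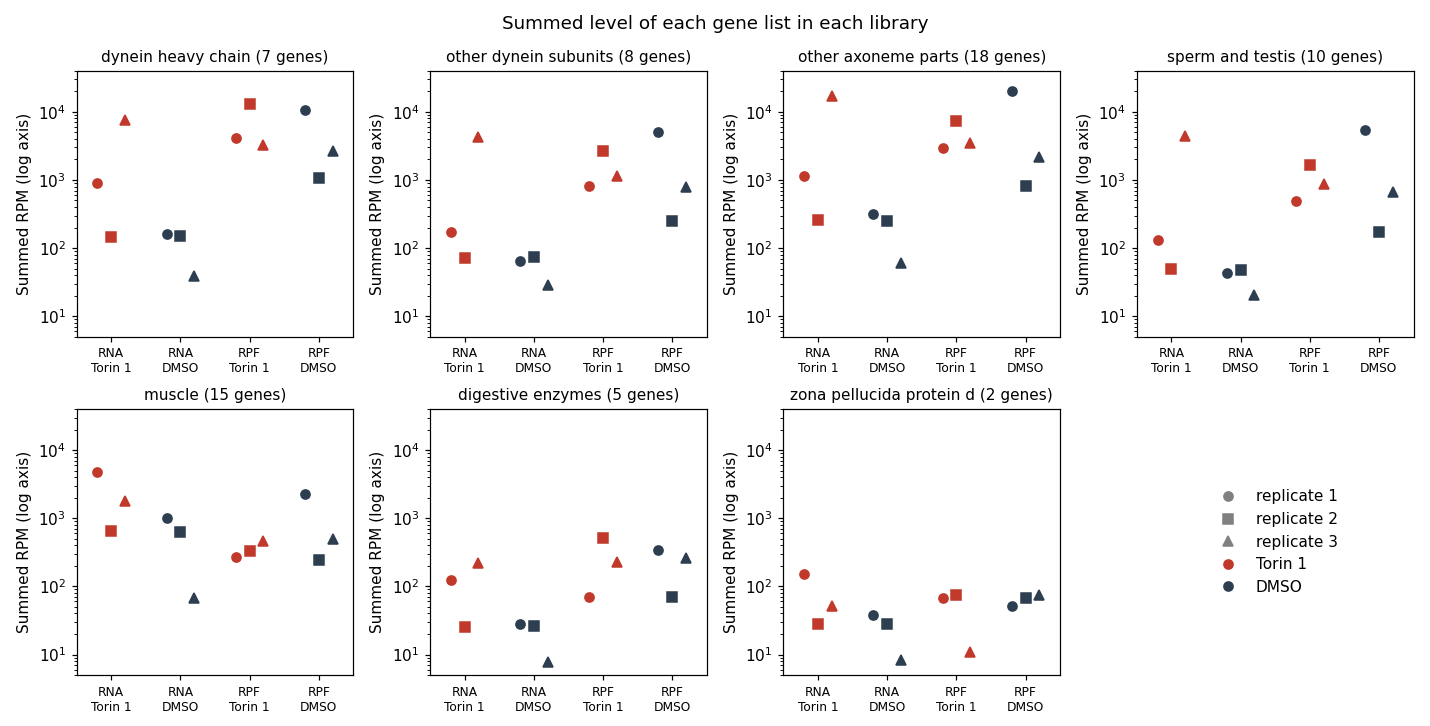
Summed RPM of the 7 dynein heavy chain models and of 6 gene lists in each library, on log axes, by assay and treatment, with marker shapes for replicates. The other dynein subunits, the other axoneme parts and the sperm and testis genes are highest in RNA Torin 1 replicate 3 among the RNA libraries, with 4314, 16950.3 and 4449.5 RPM, whereas the muscle genes are highest in RNA Torin 1 replicate 1, with 4800.2 RPM.

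The genes whose log2 CPM over the 12 libraries was most like the mean of the 7 models were sperm associated antigen 17 (GSOIDG00003222001, r = 0.996), a protein of the central pair of the axoneme, heat shock protein 40 (GSOIDG00010196001, r = 0.994), a co-chaperone, GSOIDG00007381001 (r = 0.993), described as a heavy chain 2 without a protein family, an integrin-like protein (GSOIDG00016318001, r = 0.992) and GSOIDG00001329001 (r = 0.991), which has no informative description. The correlations were 0.991 to 0.995 without RNA Torin 1 replicate 3 and RPF DMSO replicate 1. Over all genes the median correlation was -0.12. Among the 50 most similar of the 14567 genes compared were 6 of the 18 other axoneme parts, 2 of the 8 other dynein subunits and 1 of the 10 sperm and testis genes. The same counts were 6, 2 and 0 when only the 6 RNA libraries were used. In the 6 RNA libraries alone, sperm associated antigen 17 remained among the 5 most similar genes (r = 0.999), and the other 4 were different genes: a ring-box protein (GSOIDG00004121001), a tubby homolog (GSOIDG00002423001), glutamine rich 2 (GSOIDG00009875001) and a mitochondrial phosphate carrier precursor (GSOIDG00017393001).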

How the data were processed

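Total RNA and RPFs were sequenced in 12 libraries, in 4 groups of 3 biological replicates, from day 6 females. After adapter clipping, the authors discarded rRNA and tRNA reads (Bowtie2 2.1.0), aligned what remained with TopHat2 2.0.13 using the Genoscope gene models, and assigned reads to genes with featureCounts. The deposited values are raw counts, not normalized. Strand setting and treatment of reads with several positions are not given in the sources used here. The deposited annotation holds positions of another kind (start and end of 18020 models, counted from 1), and 17113 of 17212 genes had a model. Unmapped columns numbered 0.

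A minimum of 100 reads per gene, summed over the libraries, follows the study. Counts were tested in R 4.3.3 with edgeR 4.0.16 (TMM, quasi-likelihood test), with Benjamini-Hochberg adjusted p-values taken over every gene in the fit and a threshold of 0.05. Efficiency was the assay by treatment interaction, in place of babel, which the study ran. Standard errors are the absolute log2 fold change divided by the square root of F, log2 CPM used a prior count of 2, and Poisson and binomial intervals are exact and cover counting error only. Alternatives were DESeq2 1.42.0, its size factors in edgeR, no low-count filter, a replicate block and leaving out each library. The steps were tested on simulated data. RPFs and RNA of the same treatment and number were taken to share a collection. The methods state that total RNA came from a subset of the animals of each sample, but give no replicate numbers. Correlations of the deviations of RPFs and RNA from the group means were 0.183, -0.116 and 0.143 for the Torin 1 replicates, against 0.006, -0.103 and -0.086 for the DMSO replicates. The study mentions 3 animal collections that yielded samples of both treatments, but neither the labels nor the methods tie replicate numbers to them, so that libraries of Torin 1 and DMSO were not taken as paired.

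Named genes were all members, the 3 genes of each list with the highest mean RPM (given in part), the neighbours of each locus (those that shared the pattern or are described) and the 5 genes most like the members. The members and lists were chosen with earlier results of these data known. No identifier matched the RefSeq table, and sequences were not used here.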

Additional observations from a re-analysis of the deposited data

How the results depend on the processing

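Depth limits the RPFs: RPF Torin 1 replicate 3 held 20 to 141 counts of each long model. With 3 replicates per group and some libraries far from the rest, standard errors of the long models were 0.81 to 1.98 on the log2 scale. Those of the short model were 0.99 to 4.13. Of the alternatives run on the 7 models and 5 comparisons, 368 left direction and call unchanged, 17 turned the direction, 11 lost a call and 10 gained one. Of the 17, 1 also gained a call (chain 11 for RPFs over RNA in Torin 1 without RNA Torin 1 replicate 3). The direction of RPFs turned in 3 models with a replicate block (0.50 and 0.55 for the upstream and downstream models of scaffold 5 and 0.62 for chain 11), and leaving out each library gave -1.34 to 1.62 for chain 11, -1.08 to 1.63 and -0.91 to 1.69 for the upstream and downstream models of scaffold 5, and -0.13 to 1.92 for the scaffold 36 upstream model. For RPFs over RNA in Torin 1, a replicate block gave 1.46 for chain 11, and leaving out each library gave -0.90 to 2.86 for chain 11 and -0.45 to 2.84 for the scaffold 5 upstream model. The RNA change of the short model ranged from -0.47 to 0.95, and was 1.10 without RNA Torin 1 replicate 3 and both RNA libraries of replicate 2, where 1 Torin 1 library was left. Leaving out each library gave efficiency changes of -4.99 to -0.57 for the beta chain and of -4.31 to -1.08 and -3.88 to -1.15 for the upstream and downstream models of scaffold 36. They became 0.33, 0.065 and 0.24 when RNA Torin 1 replicate 3 and RPF DMSO replicate 1 were both left out. Leaving out several libraries at once was chosen after seeing the data.

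DESeq2 called 81 genes higher in RNA, 1 higher and 140 lower in efficiency, 566 lower for RPFs over RNA in DMSO, and 75 higher and 83 lower in Torin 1. With no low-count filter, edgeR called 1 gene higher and 3 lower in RPFs and 3 higher for RPFs over RNA in Torin 1. With a replicate block it called 310 lower for RPFs over RNA in DMSO, and 100 higher and 6 lower in Torin 1; none of the models changed its call under the block. Torin 1 and DMSO libraries of the same number were also paired by a replicate block, which gave 2.81 to 3.16 for RNA of the long models, against 4.04 to 5.44 without it, and correlations of their deviations were 0.657, -0.133 and 0.202 in RNA and -0.062, 0.014 and -0.014 in RPFs. Leaving out each library gave 0 to 43 genes higher and 0 to 194 lower in RPFs, 0 to 1007 higher and 0 to 1879 lower for RPFs over RNA in DMSO, and 0 to 496 higher and 0 to 65 lower in Torin 1. Of the 5 genes most like the models, 1 was shared by the 6 RNA libraries alone. Size factors of DESeq2 moved the median of all genes from -0.46 to -0.69 for efficiency and from -0.42 to -0.30 for RPFs over RNA in Torin 1, and the long models kept their signs. Counts of changed calls follow which libraries enter, and the cause was not tested.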
